A study of Mus musculus with 16 samples.

Results

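The Nr4a family consists of 3 genes, Nr4a1 (Nur77), Nr4a2 (Nurr1) and Nr4a3 (Nor1), and was measured on 16 arrays of smooth muscle cells grown from mouse aortas. The members were found by gene symbol in the platform annotation, which assigned 10 of the 45101 probe sets on the array to them. Of these, 1 belonged to Nr4a1, 6 to Nr4a2 and 3 to Nr4a3.

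The Nr4a proteins are orphan nuclear receptors. Their ligand-binding pockets are filled by bulky side chains, so that their activity follows largely from how much protein is made, and their genes are immediate early genes that growth factors, calcium and cyclic AMP switch on within minutes without new protein synthesis. They bind as monomers to an element called NBRE, and Nr4a1 and Nr4a2 also pair with the retinoid X receptors. In vascular smooth muscle, Nr4a1 is known to restrain proliferation in mice, whereas Nr4a3 is known to favour it.

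The Hey2 KO cells lacked Hey2, a transcriptional repressor that acts downstream of Notch, and the wild-type (WT) cells were handled in the same way. Cells of both genotypes came from aortas stripped of their adventitia, on a mixed C57BL/6 and 129SvJ background, and were used at passage 10 to 20. They were starved for 48 h in 0.4% serum and then received human PDGF-BB, a growth factor for smooth muscle cells, at 5 ng/ml for 0, 15, 30, 60, 120, 180, 240 or 480 min. Each genotype and time had 1 array, giving 8 Hey2 KO and 8 WT arrays. The labels do not say how many mice or isolates stand behind a genotype, so genotype and isolate cannot be told apart. A p-value here reflects how much the difference between Hey2 KO and WT cells varied from time to time, which could be technical, and in the tests between times the 2 genotypes stand in as the replicates of a time. No time course without PDGF was analysed here, so time in fresh medium and PDGF cannot be told apart either.

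The promoters are shown because all 3 members rose after PDGF. Each line gives 300 bases of the gene's strand, from 250 bases before the annotated start to 50 after it, from RefSeq on GRCm38.p6. Capitals mark the CRE core CGTCA on either strand (TGACG where it lies on the opposite strand), the short element read by the cyclic AMP and growth factor responsive activator CREB. The windows are chr15:101266596-101266895 on the plus strand for Nr4a1, chr2:57123954-57124253 on the minus strand for Nr4a2 and chr4:48045055-48045354 on the plus strand for Nr4a3. The Nr4a1 window lies inside the gene's annotated span, which begins further upstream. Most of the Nr4a3 window also lies inside its gene's span, which begins at 48045078, upstream of the start used here.
Nr4a1: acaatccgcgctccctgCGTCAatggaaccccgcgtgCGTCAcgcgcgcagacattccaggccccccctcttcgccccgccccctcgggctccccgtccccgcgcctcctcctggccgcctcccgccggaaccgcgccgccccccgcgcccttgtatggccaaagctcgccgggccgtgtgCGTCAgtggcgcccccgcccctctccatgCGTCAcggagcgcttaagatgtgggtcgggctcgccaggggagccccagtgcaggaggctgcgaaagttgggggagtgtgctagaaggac
Nr4a2: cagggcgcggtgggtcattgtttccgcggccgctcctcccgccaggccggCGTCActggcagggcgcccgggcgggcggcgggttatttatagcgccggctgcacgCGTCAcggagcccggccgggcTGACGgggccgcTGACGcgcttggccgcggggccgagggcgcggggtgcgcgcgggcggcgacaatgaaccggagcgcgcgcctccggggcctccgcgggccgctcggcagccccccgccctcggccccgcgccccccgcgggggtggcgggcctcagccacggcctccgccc
Nr4a3: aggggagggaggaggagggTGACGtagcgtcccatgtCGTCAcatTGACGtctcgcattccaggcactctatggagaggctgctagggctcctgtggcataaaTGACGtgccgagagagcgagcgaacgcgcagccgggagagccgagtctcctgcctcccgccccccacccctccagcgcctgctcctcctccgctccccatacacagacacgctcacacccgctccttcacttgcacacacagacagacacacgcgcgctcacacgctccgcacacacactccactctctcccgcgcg

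Each of the 3 windows held 4 CRE cores. In Nr4a1 they began at positions -233, -213, -69 and -40 from the start, all on the gene's strand. In Nr4a2 they began at -200, -144, -123 and -111, the last 2 on the opposite strand. In Nr4a3 they began at -231, -213, -205 and -147, with only the one at -213 on the gene's strand. The map of the promoter elements shows that all 12 lay before the start used for their window. Those of Nr4a1, and those of Nr4a3 at -213, -205 and -147, nevertheless lay inside the gene's annotated span.

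**Figure D1:**
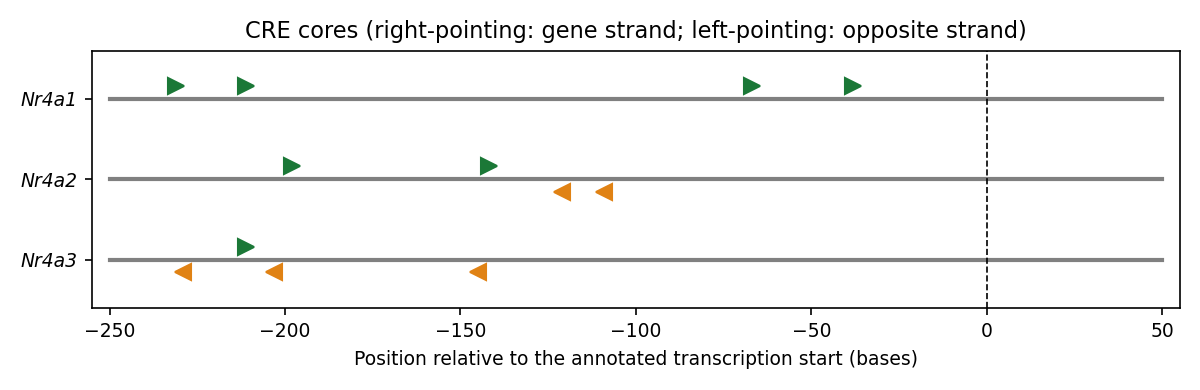
Position of CRE cores in the RefSeq promoter windows of Nr4a1, Nr4a2 and Nr4a3, in bases from the annotated start (dashed line). Triangles pointing right lie on the gene's strand and those pointing left on the opposite strand. Each window holds 4, and those of Nr4a1 are spread from -233 to -40. The annotated spans of Nr4a1 and Nr4a3 begin upstream of the dashed line.

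Of 32851 promoter windows of the same length, 20.8% held at least 1 CRE core and 0.231% held 4 or more. The members' windows were rich in G and C (72.3% in Nr4a1, 81.7% in Nr4a2 and 64.7% in Nr4a3, against a median of 52.7%), and among the 5849 windows within that range 0.547% held 4 or more. The other elements searched for on both strands were the full CRE TGACGTCA (which contains the core and was in 1.79% of all windows), the NBRE AAAGGTCA (1.51%) and the CArG box bound by serum response factor (1.63%). None of these stood in the members' windows. The motifs were chosen with these sequences already in view, and a match describes letters, not binding.

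A pair of WT arrays stood apart from the time order. With each gene centred within its genotype, the array labelled WT 60 min correlated best with the Hey2 KO 480 min array (r = 0.57, against -0.33 with Hey2 KO 60 min), and the array labelled WT 480 min correlated best with Hey2 KO 60 min (r = 0.46, against -0.38 with Hey2 KO 480 min). These correlations run across genes, which are not independent. No label was changed. The main comparisons below are given with all 16 arrays and on the 12 arrays without those labelled 60 and 480 min. Steps between neighbouring times and tests of single probe sets are given on the 12 arrays only. Signals were quantile normalized because the deposited arrays differed in brightness: their trimmed mean ran from 187 to 342.5 in Hey2 KO cells and from 81.0 (30 min) to 299.5 in WT cells. With 1 array per condition, precision is limited by how few arrays there were.

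The Hey2 probe set read 23.3 to 63.3 in Hey2 KO cells, against 101 to 113 in WT cells at 0 to 30 min and 14.0 to 19.3 at 120 to 240 min. Hey2 KO values were thus below WT at 0 to 30 min and above it at 120 to 240 min, and over all 16 arrays the difference (-0.19 on the log2 scale, SE 0.32) had a limma adjusted p of 0.697. Whether the deletion removed the sequence this probe set reads was not analysed here, and it gives no check of the genotype labels. The 10 smooth muscle markers summed to a signal of 13190 to 16290 in Hey2 KO cells and 20130 to 24550 in WT cells. At a limma adjusted p of 0.05, 7 of them were lower in Hey2 KO cells on 16 arrays and 8 on the 12, where 14.1% and 20.8% of all genes were lower. The 7 mesothelial markers were all higher in Hey2 KO cells in both fits, where 16.5% and 21.5% of all genes were higher. They summed to 12560 to 14850 against 1029 to 1922 in WT cells. The 4 of 7 endothelial markers that were tested summed to 46.2 to 103 in Hey2 KO cells and 54.3 to 108 in WT cells, and the defining genes Pecam1, Cdh5 and Tie1 were too dim to be tested. Of the leukocyte markers 3 of 7 were tested and 0 passed on 16 arrays, with 1 higher and 1 lower on the 12. Of the 7 fibroblast markers 4 were higher and 1 lower in Hey2 KO cells in both fits. Fewer cells of a type and less RNA per cell cannot be told apart in such bulk samples. The part of this marker difference in the genotype results below was not tested.

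Nr4a1 lies on chromosome 15 (101253902 to 101274795, GRCm38.p6) and was measured by the probe set 1416505_at. Its signal was higher at 15 min than at 0 min and higher again at 30 min in both genotypes. In Hey2 KO cells its normalized signal was 78.7, 567, 4836, 6446, 2615, 931, 935 and 328 at 0, 15, 30, 60, 120, 180, 240 and 480 min. In WT cells it was 112, 788, 4987, 518, 5615, 1685, 1429 and 7982 at the same times. Hey2 KO cells thus peaked at 60 min and had come down to 5.09% of that peak by 480 min. In WT cells the array labelled 480 min was the highest of all and the one labelled 60 min was below that of 15 min. Leaving those times aside, the levels at 0 min were the lowest in both genotypes, and the WT value was the higher one at all 6 times.

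**Figure D2:**
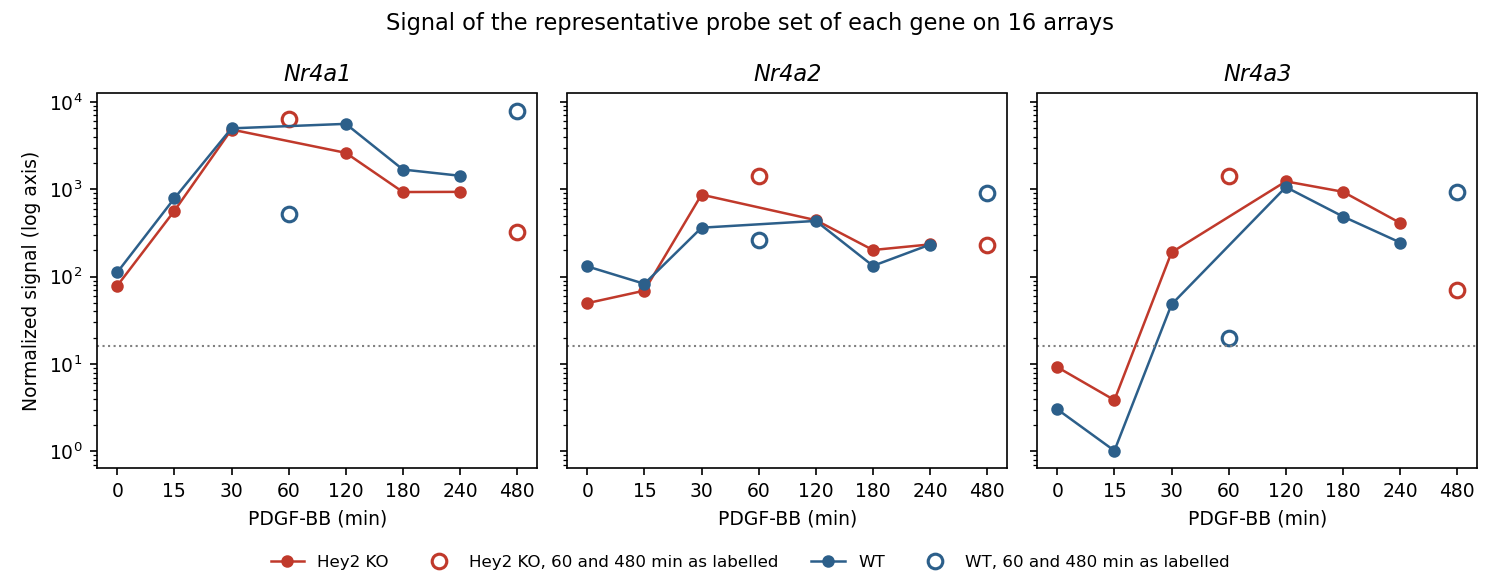
Normalized signal (log axis) of Nr4a1, Nr4a2 and Nr4a3 against minutes of PDGF-BB, shown at equal steps, with 1 array per point, in Hey2 KO cells (red) and WT cells (blue). Open circles are the arrays labelled 60 and 480 min, lines join the other 12, and the dotted line is the signal of 16 that a probe set had to exceed on at least 3 arrays. Nr4a1 stands at 4836 in Hey2 KO cells and 4987 in WT cells at 30 min, when Nr4a3 is at 190 and 48.2.

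Changes are given as differences of log2(signal + 4.856), where the added offset keeps very dim values finite and understates the change of dim genes. Nr4a1 stood 2.77 above its 0 min level at 15 min on the 12 arrays (SE 0.19, 6.82-fold, limma adjusted p = 6.37e-05), when 8 of 13913 genes (0.0575%) passed an adjusted p of 0.05. At 30 min it stood 5.64 above 0 min (SE 0.19, 49.8-fold, limma adjusted p = 2.02e-08), in a comparison that called 0.424% of genes. With all 16 arrays the same differences had SEs of 1.26 and limma adjusted p of 1 and 0.657, with 0% and 0.021% of genes called. At 120, 180 and 240 min Nr4a1 was still 5.28, 3.67 and 3.56 above 0 min on the 12 arrays (largest limma adjusted p 8.57e-07), where 20.5%, 27.5% and 32.1% of genes passed. On all 16 arrays Nr4a1 passed at 120 min and not at 180 or 240 min (limma adjusted p = 0.0406, 0.121 and 0.109), where 4.8%, 3.92% and 3.64% of genes passed. The call at 15 min was lost on the 12 arrays with the deposited scale (2.32, limma adjusted p = 0.561) and without the variance trend (limma adjusted p = 0.0583).

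Averaged over 15 and 30 min, Nr4a1 was 4.20 above 0 min, which passed on the 12 arrays (SE 0.17, limma adjusted p = 1.13e-07, 0.201% of genes called) and not on all 16 (SE 1.09, limma adjusted p = 1, 0.014% called). Averaged over 120 to 240 min it was 4.17 above 0 min, an 18-fold rise that passed in both fits. The limma adjusted p was 0.0295 on 16 arrays (SE 1.03, 10.8% of genes called) and 4.27e-08 on the 12 (SE 0.16, 34.9% called). On 16 arrays it missed the threshold without the 120, 180 or 240 min arrays (limma adjusted p = 0.0829, 0.0592 and 0.0544), and on the 12 it passed in every such fit. This rise was the 9th largest change in size among the genes tested in either fit. The difference between the 2 windows was -0.03 for Nr4a1 (95% interval -0.31 to 0.24 on the 12 arrays), and it was -1.47 without the 15 min arrays and 1.40 without the 30 min arrays. The step between 30 and 120 min was 0.36 (95% interval -0.06 to 0.78), and 120 min exceeded 180 min by 1.61 (1.19 to 2.03). The levels at 180 and 240 min lay within their error of each other (0.11, -0.31 to 0.54).

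Nr4a3 lies on chromosome 4 (48045078 to 48086447) and exceeded the detection floor of 16 only from 30 min on in both genotypes. Its readout was the probe set 1438796_at. In Hey2 KO cells its normalized signal was 9.23, 3.87, 190, 1416, 1233, 937, 412 and 71.0 from 0 to 480 min. In WT cells it was 3.04, 1.02, 48.2, 19.9, 1061, 488, 246 and 935. At 0 and 15 min both genotypes were below that floor, so the size of any change from those times depends on the offset. At 120 min the signal was high in both genotypes, and it was lower again at 180 and 240 min. The array labelled WT 60 min was barely above the floor, while Hey2 KO cells reached their peak at that time.

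Nr4a3 differed from 0 min by -0.56 at 15 min on the 12 arrays (95% interval -1.23 to 0.12) and stood 3.27 above it at 30 min (SE 0.31, limma adjusted p = 1.96e-04, against an SE of 1.47 and an adjusted p of 1 on all 16). At 120 min it was 6.77 above 0 min, at 180 min 6.01 and at 240 min 4.94 (limma adjusted p = 2.76e-07, 6.23e-07 and 1.68e-06 on the 12 arrays). On all 16 arrays it passed at 120 and 180 min and not at 240 min (limma adjusted p = 0.0287, 0.0489 and 0.0752). Each of these neighbouring times differed beyond its error on the 12 arrays. The 120 min level was above that of 180 min by 0.75 (95% interval 0.08 to 1.43), and 180 min was above 240 min by 1.07 (0.40 to 1.75).

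Nr4a3 was 5.91 above 0 min over 120 to 240 min, with a limma adjusted p of 0.0151 on 16 arrays (95% interval 3.26 to 8.55) and 6.44e-08 on the 12 (SE 0.25). Nr4a3 also rose between the windows: it was 4.55 higher at 120 to 240 min than at 15 and 30 min, with a limma adjusted p of 0.00836 on 16 arrays (SE 0.95, 22% of genes called) and 5.31e-08 on the 12 (SE 0.20, 42.7% called). On 16 arrays that step was 2.64 without the 15 min arrays (limma adjusted p = 0.225). The mean of 15 and 30 min was 1.36 above 0 min and did not pass in either fit (limma adjusted p = 1 on 16 arrays and 0.125 on the 12), with the 15 min values below the floor.

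**Figure D3:**
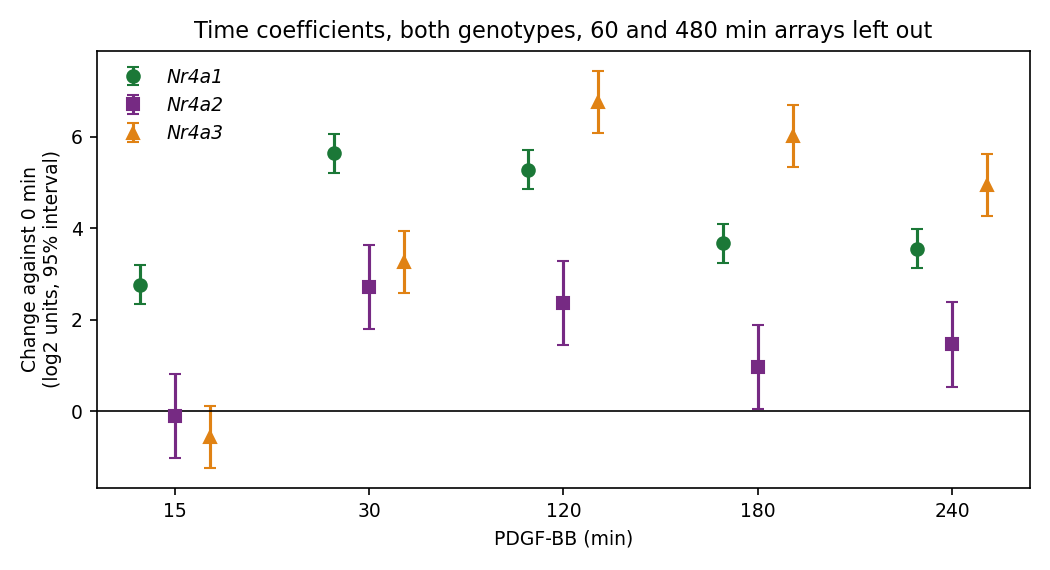
Difference from 0 min in log2 units (vertical axis) at each time of PDGF-BB, over both genotypes, on the 12 arrays without those labelled 60 and 480 min. Points are limma coefficients and bars their 95% intervals. Nr4a1 is above 0 from 15 min on, Nr4a2 and Nr4a3 from 30 min on, and Nr4a3 is at 6.77 at 120 min.

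The other probe sets of Nr4a3 gave no readout. The signal of 1421079_at exceeded 16 on 1 array, the one labelled WT 480 min (16.1), and otherwise stayed between 0.95 and 7.99. That of 1421080_at ran from 4.39 to 11.4 and never exceeded the floor. The Nr4a3 result therefore rests on a single probe set.

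Nr4a2 lies on chromosome 2 (57106830 to 57124003) and rose at 30 min. Its brightest probe set, 1455034_at, stood for the gene. In Hey2 KO cells it read 49.8, 69.2, 869, 1418, 444, 202, 234 and 231 from 0 to 480 min. In WT cells it read 131, 82.9, 364, 263, 435, 133, 233 and 916. The lowest values were those of 0 and 15 min in both genotypes. The WT value at 180 min (133) was back at that of 0 min (131), while every Hey2 KO value from 30 min on was above those of 0 and 15 min.

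At 15 min Nr4a2 differed from 0 min by -0.10 on the 12 arrays (95% interval -1.02 to 0.83). At 30 min it was 2.72 above 0 min (SE 0.42, 6.58-fold, limma adjusted p = 0.0117) and at 120 min 2.36 above it (limma adjusted p = 0.00265). At 180 min the difference of 0.97 missed the threshold (limma adjusted p = 0.113), and at 240 min that of 1.47 passed (limma adjusted p = 0.0196). None of these passed on all 16 arrays, where the 30 min difference had a limma adjusted p of 1. At 30 min the difference from 0 min was 4.00 in Hey2 KO cells and 1.44 in WT cells, neither value has a replicate, and the gap between them was not tested. On the deposited scale, before the arrays were brought to a common brightness, the WT 30 min signal of Nr4a2 was 128.3, against 159.6 at 0 min. That array was the dimmest of the 16 and had the highest 3'/5' ratio of the Actb control (3.88), a ratio that is higher where RNA is shortened. By the Gapdh control the array's ratio was 4.49, below those of Hey2 KO cells at 15 min (5.65) and 180 min (4.64). As deposited, the 30 min difference on the 12 arrays was 1.86 with a limma adjusted p of 0.422, and without the variance trend the limma adjusted p was 0.236.

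Over 120 to 240 min Nr4a2 was 1.60 above 0 min, or 3.03-fold. With its probe sets averaged this was 0.88, and the 30 min difference was 1.55 (limma adjusted p = 0.0145 and 0.0411 on the 12 arrays). The value of 1.60 passed on the 12 arrays (SE 0.34, limma adjusted p = 0.00381) and not on all 16 (SE 0.65, limma adjusted p = 0.131). The windows of 120 to 240 min and of 15 and 30 min differed by 0.29 (95% interval -0.31 to 0.89 on the 12 arrays). From 30 min down, the order of the times was 30, 120, 240 and 180 min, and no step between neighbours exceeded its error.

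The 6 probe sets of Nr4a2 fell into brighter and dim ones. The 4 brighter ones, shown in the plot of all 6, correlated with each other over the 16 arrays at r = 0.76 to 0.97. They share the same arrays, so this is a description. At 30 min 1447863_s_at read 393 in Hey2 KO cells and 119 in WT cells, against 33.1 and 60.2 at 0 min. At the same time 1450750_a_at read 239 in Hey2 KO cells and 146 in WT cells, against 37.4 and 55.1 at 0 min. Both had their highest values in Hey2 KO cells at 60 min (519 and 459) and on the array labelled WT 480 min (307 and 274 in WT cells).

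In fits over all probe sets on the 12 arrays, 1450750_a_at was 1.93 above 0 min at 30 min (limma adjusted p = 0.00654), and 1447863_s_at was 2.16 above it without passing (limma adjusted p = 0.0683). Over 120 to 240 min both passed, with 0.94 and 1.13 (limma adjusted p = 0.00876 and 0.0328). The flatter 1450749_a_at ran from 36.8 to 151 over the 16 arrays and was 0.41 above 0 min in that window (limma adjusted p = 0.242). The dim 1433422_at (1.60 to 43.3) correlated with the others at r = 0.07 to 0.31, and 1433423_at never exceeded the floor.

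**Figure D4:**
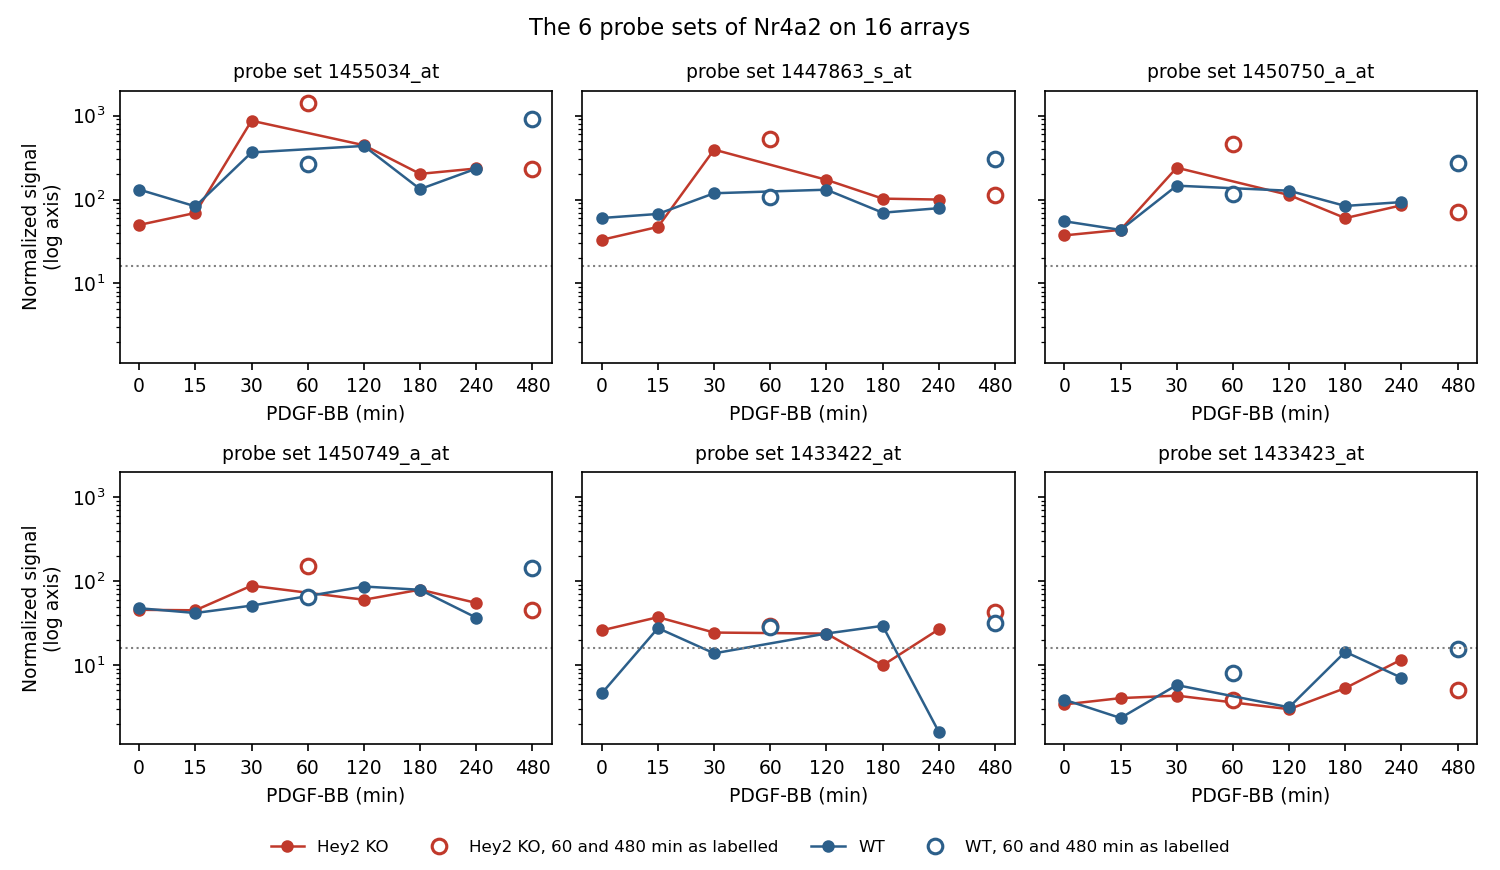
Normalized signal (log axis) of the 6 probe sets of Nr4a2 against minutes of PDGF-BB, 1 array per point, in Hey2 KO cells (red) and WT cells (blue), with open circles for the arrays labelled 60 and 480 min and a dotted line at 16. The top row and 1450749_a_at are correlated over all 16 arrays (r = 0.76 to 0.97), with 1450749_a_at the flattest of these, while 1433423_at stays below the line.

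A test for any change over time asked the same of all members at once. All 3 passed the limma F test on the 12 arrays, with adjusted p of 9.58e-08 for Nr4a1, 9.29e-04 for Nr4a2 and 1.23e-07 for Nr4a3, where 35.7% of all genes passed. On all 16 arrays none did (limma adjusted p = 0.178, 0.14 and 0.076, unadjusted 0.0245, 0.014 and 0.00339), where 2.96% of all genes passed. RNA quality moved with time too: the Actb 3'/5' ratio was 2.89, 3.71 and 1.95 at 0, 15 and 30 min in Hey2 KO cells and 2.75, 2.41 and 3.88 in WT cells, and 1.85, 2.44 and 1.54 at 120, 180 and 240 min in Hey2 KO cells and 1.53, 1.84 and 1.78 in WT cells. The Gapdh ratio was 3.51, 5.65 and 3.19 at 0, 15 and 30 min in Hey2 KO cells and 3.73, 3.22 and 4.49 in WT cells. At 120, 180 and 240 min the Gapdh ratio was 2.56, 4.64 and 2.44 in Hey2 KO cells and 2.59, 3.21 and 2.99 in WT cells. The part of RNA quality in the time differences was not tested.

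Between genotypes the members differed in opposite directions on the 12 arrays. Nr4a1 was lower in Hey2 KO cells at all 6 times, with differences of -0.48, -0.47, -0.04, -1.10, -0.85 and -0.61 at 0, 15, 30, 120, 180 and 240 min. The mean difference was -0.59 (SE 0.11, 1.51-fold lower, limma adjusted p = 0.0011). On the deposited scale it was -0.22 (limma adjusted p = 0.723), and the median of all genes was then 0.38, so that Nr4a1 was -0.60 from that median.

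Nr4a3 was higher in Hey2 KO cells at all 6 times, by 0.84, 0.57, 1.88, 0.22, 0.93 and 0.73. The mean was 0.86 (SE 0.18, 1.82-fold, limma adjusted p = 0.00214). The values at 0 and 15 min were below the floor in both genotypes. Without the 0 min arrays, the 15 min arrays or any other single time, and under each of the other settings tried on the 12 arrays, the difference stayed between 0.66 and 1.28 and passed.

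Nr4a2 differed by 0.05 over the 12 arrays (95% interval -0.48 to 0.58, limma adjusted p = 0.889). Its difference was -1.32 at 0 min, 1.25 at 30 min and 0.01 at 240 min, so neither genotype was above the other throughout. A genotype difference was common in these cells: 42.3% of all genes passed on the 12 arrays (21.5% higher and 20.8% lower in Hey2 KO cells) and 30.6% on all 16. The 2 calls among the 3 members stand beside that share.

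**Figure D5:**
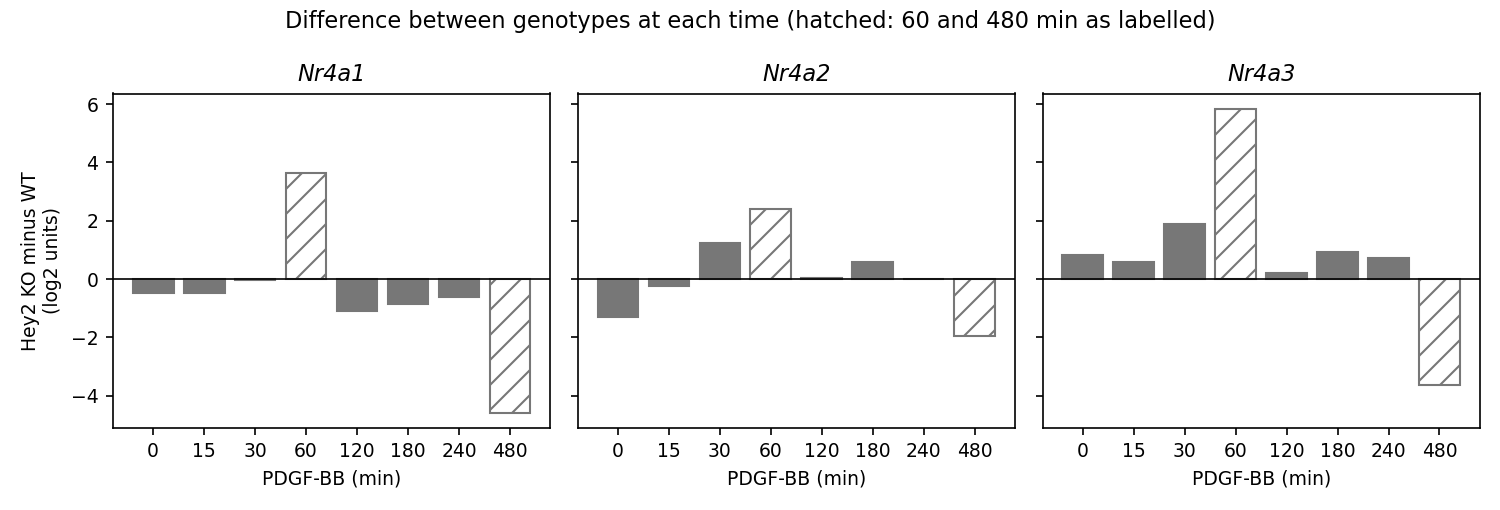
Difference between Hey2 KO and WT cells (Hey2 KO minus WT, log2 units) at each time of PDGF-BB for Nr4a1, Nr4a2 and Nr4a3, 1 array per genotype and time. Hatched bars are the times labelled 60 and 480 min. Nr4a1 is below 0 and Nr4a3 above 0 at the other 6 times, and the hatched bars reach 5.84 and -4.58.

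With all 16 arrays no member passed between genotypes, nor did any at an unadjusted limma p of 0.05. Nr4a1 had a difference of -0.56 (SE 0.63, limma adjusted p = 0.541), Nr4a2 one of 0.09 (SE 0.40, limma adjusted p = 0.889) and Nr4a3 one of 0.92 (SE 0.74, limma adjusted p = 0.384). The arrays as labelled gave opposite and large differences at the 2 times left out of the shorter fit. At 60 min Hey2 KO cells were 3.63 above WT for Nr4a1, 2.41 for Nr4a2 and 5.84 for Nr4a3, and at 480 min the differences were -4.58, -1.97 and -3.63.

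Whether the genotype difference changed with time was tested as an interaction, the Hey2 KO minus WT difference from 120 min on less that before. On the 12 arrays it was -0.52 for Nr4a1 (SE 0.15, limma adjusted p = 0.0794), 0.31 for Nr4a2 (limma adjusted p = 0.784) and -0.47 for Nr4a3 (limma adjusted p = 0.488), where 4.26% of genes passed. On all 16 it was -2.44, -0.86 and -2.72, with limma adjusted p of 0.606, 0.769 and 0.637 and 0.014% of genes called. The 60 and 480 min arrays lie on either side of that division, and the values without them are those of the 12 arrays.

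The members' own profiles were positively correlated. With each gene centred within its genotype, Nr4a1 and Nr4a2 correlated at r = 0.83 over the 16 arrays, Nr4a1 and Nr4a3 at 0.75 and Nr4a2 and Nr4a3 at 0.71. The values were 0.83, 0.67 and 0.67 on the 12 arrays. Over the 16 arrays 0.203% of genes correlated more closely with Nr4a1 than Nr4a2 did, and 0.49% more closely than Nr4a3 did. For Nr4a2, 0.504% of genes were closer than Nr4a3. All genes share these arrays and their time order, and the values carry no test.

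The genes whose profiles were most like Nr4a1 over the 16 arrays were Fosb (r = 0.97), Atf3 (0.96), Egr2 (0.96), Junb (0.94) and Egr3 (0.92). Fosb and Junb encode partners in the AP-1 transcription factor, Egr2 and Egr3 zinc finger factors and Atf3 a stress-responsive bZIP factor, all of them known as early response genes. Over 120 to 240 min Fosb was 5.19, Atf3 3.16, Egr2 5.46, Junb 1.91 and Egr3 5.55 above 0 min, next to 4.17 for Nr4a1. Genes alike in profile were chosen by their change over time, so the values for this window, here and for the other members, are descriptions with no test. On the 12 arrays Egr2 (-0.77), Junb (-0.61) and Egr3 (-0.81) were lower in Hey2 KO cells, as Nr4a1 was, with limma adjusted p of 0.0391, 0.0348 and 5.63e-05. Fosb and Atf3 did not pass (0.13 and -0.20). Of all genes 20.8% passed as lower in Hey2 KO cells on the 12 arrays. On all 16 arrays Egr2, Junb and Egr3 did not pass (limma adjusted p = 0.384, 0.413 and 0.237), nor did Nr4a1 (0.541).

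Nr4a3 was most like Maff (r = 0.98), Irx3 (0.97), F3 (0.95), Arc (0.95) and Ppp1r15b (0.95). Maff is a small bZIP factor, Irx3 a homeobox factor, F3 tissue factor, the starter of blood clotting, Arc an activity-regulated gene of neurons and Ppp1r15b a regulatory subunit of a phosphatase that acts on eIF2 alpha. From 120 to 240 min Maff was 1.71, Irx3 1.94, F3 2.02, Arc 5.97 and Ppp1r15b 1.08 above 0 min, next to 5.91 for Nr4a3. On the 12 arrays Nr4a3 was higher in Hey2 KO cells, whereas Maff (-0.43), Irx3 (-0.73), Arc (-0.80) and Ppp1r15b (-0.39) were lower in Hey2 KO cells, with limma adjusted p of 9.86e-04, 4.25e-04, 0.0344 and 4.79e-04, and F3 did not pass (0.04). Of all genes 20.8% passed as lower on the 12 arrays. On all 16 arrays Maff, Irx3 and Arc did not pass (limma adjusted p = 0.312, 0.0888 and 0.425), while Ppp1r15b did (0.049). The difference between genes was not tested.

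Nr4a2 was most like 3110001I22Rik (r = 0.93), Dnajb1 (0.89), Sirt1 (0.87), Egr3 (0.87) and Pcf11 (0.86). Dnajb1 is a co-chaperone of Hsp70, Sirt1 a deacetylase and Pcf11 a factor of 3' end formation. In that window 3110001I22Rik was 0.83, Dnajb1 1.05, Sirt1 0.38, Egr3 5.55 and Pcf11 0.42 above 0 min, next to 1.60 for Nr4a2. Pcf11 was lower in Hey2 KO cells on the 12 arrays (-0.35, limma adjusted p = 0.00731) and did not pass on all 16 (0.242). The differences of 3110001I22Rik (0.17), Dnajb1 (0.01) and Sirt1 (-0.18) on the 12 arrays did not pass.

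Genes that work with the receptors were described by 3 lists. Of 16 dimerization partners and cofactors, 13 were tested. Over 120 to 240 min 0 rose in either fit, and 2 fell on 16 arrays and 7 on the 12, where 5.73% and 20.8% of all genes fell. At an unadjusted limma p of 0.05, 0 rose in either fit. Rxrb fell by 0.59 (limma adjusted p = 0.0276 on 16 arrays) and Rxra by 0.62 (0.0135 on the 12 arrays only), both of them retinoid X receptors. Pml, the scaffold of nuclear bodies, fell by 0.72 (limma adjusted p = 0.0137 on 16 arrays), and the coactivator Ncoa2 by 0.67 (1.56e-03 on the 12 arrays only). The median of the 13 was -0.29, against -0.08 for all genes.

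Between genotypes 3 of these 13 were higher and 3 lower in Hey2 KO cells on 16 arrays, and 4 and 4 on the 12, beside 30.6% and 42.3% of all genes that passed either way. The coactivator Ncoa1 was 1.38 higher and Rxra 0.59 higher in Hey2 KO cells (limma adjusted p = 2.92e-04 and 0.00755). Ncoa2 (-0.60) and the acetyltransferase Ep300 (-0.61) were lower in Hey2 KO cells (limma adjusted p = 0.0107 and 4.61e-04). The median of the list was 0.03, against -0.02 for all genes.

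Of 21 genes for kinases and transcription factors that act on Nr4a promoters or upstream of them, 17 were tested. Over 120 to 240 min 4 rose and 0 fell on 16 arrays, where 5.11% of all genes rose, and 5 rose and 3 fell on the 12, where 14.1% rose. Serum response factor (Srf) rose by 1.39, the MADS-box factor Mef2a by 0.73, the kinase Rps6ka3 (RSK2) by 0.52 and the Srf partner Elk4 by 0.41, with limma adjusted p of 0.0189, 0.00176, 0.0285 and 0.0411 on 16 arrays. On the 12 arrays Mef2c fell by 0.86, Rps6ka5 (MSK1), a kinase of CREB, by 1.22 and Prkd1, protein kinase D1, by 0.70, with limma adjusted p of 9.23e-04, 0.0031 and 0.00325. The list's median was 0.09, against -0.08 for all genes. Creb1 itself differed by -0.03 (limma adjusted p = 0.936 on 16 arrays).

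Between genotypes 3 of these 17 were higher and 4 lower in Hey2 KO cells on 16 arrays, and 4 and 5 on the 12, against 30.6% and 42.3% of all genes. Rps6ka3 was 0.69 and Prkd1 0.69 higher, and Mef2c (-0.87) and Elk4 (-0.45) were lower in Hey2 KO cells (limma adjusted p = 7.79e-05, 0.00719, 0.00415 and 5.21e-04). The median of the list was 0.05.

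The last list held 20 reported Nr4a target genes from several tissues, of which 16 were tested on 16 arrays and 15 on the 12. Over 120 to 240 min 0 rose or fell on 16 arrays, and 1 was higher and 1 lower at an unadjusted limma p of 0.05. The fit on the 12 called 2 higher and 2 lower. Of all genes 10.8% passed on 16 arrays, and on the 12 14.1% were higher and 20.8% lower. On the 12 arrays the ubiquitin ligase subunit Skp2, a known Nr4a3 target in smooth muscle, rose by 0.67 (limma adjusted p = 0.00273). The cell cycle inhibitor Cdkn1b (p27), whose protein is a substrate of Skp2, fell there by 1.05 (limma adjusted p = 1.95e-05). The hormone precursor Pomc rose by 0.62 (limma adjusted p = 0.0427) and the replication helicase subunit Mcm7 fell by 0.34 (limma adjusted p = 0.0373) on the 12 arrays. On 16 arrays Skp2 and Cdkn1b had limma adjusted p of 0.328 and 0.0769. These are RNA values, protein was not measured, and a link between Nr4a3, Skp2 and Cdkn1b was not tested. Cyclin D1 (Ccnd1), another reported Nr4a3 target, differed by 0.10 (limma adjusted p = 0.237 on the 12 arrays). The list's median was 0.05 in both fits.

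Between genotypes 1 target was higher and 1 lower in Hey2 KO cells on 16 arrays, and 3 and 4 on the 12, where 30.6% and 42.3% of all genes passed. On 16 arrays they were Birc3 (0.49), an inhibitor of apoptosis, and cyclin D2 (Ccnd2, -0.18), with limma adjusted p of 0.00285 and 0.0162. Skp2 (-0.38) and Cdkn1b (-0.48) were among the 4 lower in Hey2 KO cells on the 12 arrays (limma adjusted p = 0.00753 and 2.05e-04), where Nr4a3 was higher. The median of the list was -0.15. At 15 and 30 min 0 genes of the 3 lists passed the limma test in either fit, where 0.014% of all genes passed on 16 arrays and 0.201% on the 12. At an unadjusted p of 0.05, 1 target was higher on 16 arrays, and 1 target and 1 signalling gene on the 12.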

How the data were processed

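Affymetrix mouse arrays measured RNA, 1 for each genotype and time. The deposited table gives linear signal intensities, 1 per probe set and array. Per the submitters' processing notes the authors used MAS5. Neither its version nor its target brightness is stated there. Genotype and time came from the sample titles.

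After quantile normalization, signals became log2(signal + 4.856), where 4.856 was the 20th percentile of all values. Probe sets above 16, the 40th percentile, on at least 3 arrays were tested. Of the non-control probe sets 34945 had 1 symbol, 932 several and 9160 none; only the first were named. The brightest tested probe set stood for its gene, leaving 14299 genes, or 13913 on the 12 arrays. The tests came from limma 3.58.1 (R 4.3.3). Its model held a factor for time and a term for genotype (7 residual degrees of freedom, 5 on the 12 arrays; 6 and 4 with the interaction), and variances were moderated along an intensity trend. The threshold was 0.05 after Benjamini-Hochberg adjustment over all genes. The scripts were tested on simulated data. Promoters were searched with Python 3.11.15. Named genes were the members, Hey2, per member the 5 most alike genes, and per list up to 4 called genes with the smallest p; Ccnd1 and Creb1 were added after their values were seen. The members, lists and tests were chosen with earlier results of these data known. The alternatives changed the scaling, the offset, the filter, the probe set rule, the variance trend, the time factor or the interaction's shape, or left out a time. Applying these alternatives to the 12 arrays was added after the data had been seen. Those of the time factor and the interaction's shape were run on the 16 arrays only.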

Additional observations from a re-analysis of the deposited data

How the results depend on the processing

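Values are log2 differences. Without the 60 and 480 min arrays, Nr4a1 (-0.59) and Nr4a3 (0.86) passed between genotypes, Nr4a1 at 15 and 30 min (4.20) and Nr4a2 at 120 to 240 min (1.60) passed against 0 min, and the Nr4a2 interaction turned to 0.31. On the deposited scale with 16 arrays, the genotype difference of Nr4a3 (1.26) and the rise of Nr4a1 at 15 and 30 min (3.63) passed, and the difference of Nr4a1 between the windows turned to 0.40, with 16 or 12 arrays. On that scale the median of all genes was 0.28 between genotypes, -0.53 at 15 and 30 min, -0.17 at 120 to 240 min and 0.31 between the windows. Of the genes called between genotypes 87.9% were then higher in Hey2 KO cells, against 54% after quantile normalization, and on the 12 arrays Nr4a1 at 15 min (2.32), Nr4a2 at 30 min (1.86) and Nr4a2 at 120 to 240 min (1.42) no longer passed. Averaging probe sets lowered Nr4a2 to 0.88 at 120 to 240 min and 1.55 at 30 min, and turned Nr4a2 between the windows to -0.016, at 15 min to 0.23 and its interaction on the 12 arrays to -0.11. Without the variance trend, Nr4a1 at 120 to 240 min (4.17) on 16 arrays, and Nr4a1 at 15 min (2.77) and Nr4a2 at 30 min (2.72) on the 12, missed the threshold. The causes were not tested. Leaving out each time in turn on 16 arrays, the genotype difference ran from -1.16 to 0.0091 for Nr4a1, -0.24 to 0.39 for Nr4a2 and 0.22 to 1.57 for Nr4a3, whose highest value, without the 480 min arrays, had a limma adjusted p of 0.05 after rounding. Between the windows it ran from -1.47 to 1.40, -1.12 to 1.70 and 2.64 to 6.47 for Nr4a1, Nr4a2 and Nr4a3. At 15 and 30 min it ran from -0.10 to 2.72 for Nr4a2 and -0.56 to 3.27 for Nr4a3, and at 120 to 240 min from 3.61 to 4.48 for Nr4a1 and 1.22 to 1.92 for Nr4a2. A window that loses a time is the mean of the times left. The extremes at 15 and 30 min are therefore the differences at 15 min alone and at 30 min alone, and those between the windows also come from leaving out 15 or 30 min. On the 12 arrays the ranges between and against those windows were the same for these results or narrower, and those of Nr4a2 were -0.19 to 0.32 between genotypes and -0.29 to 0.99 for the interaction. Genes called at 15 and 30 min numbered 2 on 16 arrays, 28 on the 12 and 12 on the deposited scale. At 120 to 240 min they numbered 1549, 4855 and 276, between the windows 3145, 5937 and 1099, for the interaction 2, 592 and 6, and between genotypes 4381, 5888 and 2140. Of the members' results set against an alternative to the 16-array fit, 290 kept direction and side of the threshold, 15 came to pass it, 5 no longer passed and 14 turned direction. Against alternatives to the 12-array fit, 230 kept both, 5 came to pass, 6 no longer passed and 14 turned. The 2 arrays of each time were paired through the time factor, and without it no member passed between genotypes on 16 arrays (lowest limma adjusted p 0.663). With 1 array per condition, single times have no replicate check.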
